A study of Mus musculus with 12 samples.

Results

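The genes of DNA replication are the 46 genes that code for the proteins that license and fire origins, unwind and copy the chromosomes, join the new strands, supply the nucleotides and open S phase. They were taken by name from a list of replication genes and are 46 of the 55487 genes in the expression table. The list was chosen with earlier results of these data known, so the set as a whole was not tested. They fall into 7 roles: origin licensing and firing, the replicative helicase, single-strand DNA binding, primase and the polymerases, the sliding clamp with its loader and the joining of lagging strands, nucleotide supply, and entry into S phase. The cells were mouse mammary fibroblasts, the collagen-making cells of the stroma, grown as a primary line from the fat pad of 1 healthy B6 animal, and their RNA was sequenced. The 12 libraries form 4 groups of 3. Doxorubicin, a topoisomerase II poison that breaks DNA, was given at 100 nM for 24 h, and the cells were lysed on day 7. Hydrogen peroxide, an oxidant, was given at 750 uM for 2 h on 3 occasions, each with 48 h of recovery, and those cells were lysed on day 6. Water served as the vehicle, in a separate group for each treatment that was lysed on the same day as the treated cells. Vehicle cells were split routinely and the labels give no splitting for treated cells, so treatment and passaging cannot be told apart. All groups come from this single line, and whether the 3 libraries of a group came from separate cultures is not stated. The p-values therefore cover the spread among these libraries, which may be technical.

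Before S phase, the origin recognition complex, CDC6 and CDT1 load rings of MCM2 to MCM7 onto DNA. The kinases CDC7-DBF4 and cyclin E-CDK2 then switch these rings on with CDC45 and GINS, and primase, the polymerases and the PCNA clamp copy the opened strands. Transcription of many of these genes rises at the G1/S boundary, when E2F factors are released from the retinoblastoma protein, and their low expression is a known feature of fibroblasts that have left the cell cycle. The labels describe both treatments as ways to make the fibroblasts senescent, that is, stably arrested, and the comparison asks what each did to the replication machinery.

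The promoters of 3 members are shown as examples because E2F sites are a well known control of this gene group. All 3 were picked from members with a match to the E2F consensus before the start. Any part of E2F in the changes was not tested. Each stretch is the 160 bases before the annotated start, read 5′ to 3′ on the strand of the gene from the RefSeq promoter table for GRCm38.p6, and holds no GENCODE exon. Capitals mark the E2F consensus, searched on both strands as TTTCCCGC, TTTCGCGC, TTTGCCGC or TTTGGCGC; matches on opposite strands can overlap, and adjoining capitals are then 1 run. Mcm6, a subunit of the MCM ring, lies on the minus strand, with the stretch at chr1:128359706-128359865. Mcm5, another ring subunit, lies on the plus strand, with the stretch at chr8:75109349-75109508. Pola1, the catalytic subunit of polymerase alpha, lies on the minus strand, with the stretch at chrX:93632156-93632315.
Mcm6: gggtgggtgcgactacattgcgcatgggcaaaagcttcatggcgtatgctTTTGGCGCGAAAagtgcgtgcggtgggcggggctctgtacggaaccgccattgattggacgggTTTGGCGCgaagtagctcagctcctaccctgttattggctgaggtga
Mcm5: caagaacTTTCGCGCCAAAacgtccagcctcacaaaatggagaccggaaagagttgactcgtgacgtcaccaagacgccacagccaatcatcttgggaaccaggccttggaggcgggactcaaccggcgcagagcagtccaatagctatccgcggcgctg
Pola1: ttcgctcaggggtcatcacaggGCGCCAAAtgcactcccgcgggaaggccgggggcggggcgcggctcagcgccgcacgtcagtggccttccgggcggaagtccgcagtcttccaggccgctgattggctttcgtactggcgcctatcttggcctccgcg

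A promoter window of 300 bases, from 250 before to 50 after the start, was found for 38 of the 46 genes, and 15 of these (39.5%) held the consensus. Among the 9687 genes of the expression test that had a window the share was 4.72%, and among all 27025 genes with a window it was 2.61%. The median GC content of the windows was 60.1% for the replication genes and 60.7% for the genes of the expression test. The 15 were Orc1, Cdc6, Cdt1, Mcm3, Mcm5, Mcm6, Mcm7, Gins3, Pola1, Pold1, Pold3, Pole2, Rfc3, Lig1 and E2f2. In the 250 bases before the start alone the count was 8 (21.05%). The share there was 3.93% among the genes of the expression test with a window and 2.16% among all genes with a window. A match describes letters in this window and says nothing of binding. Ccne2, Gins1, Gins2, Gins4, Mcm4, Pole, Prim2 and Rfc2 had no entry in the table.

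The deposited values are CPM, counts per 1e+06 reads, and each library held between 17.3 and 37.6 M reads (M, 1e+06) as read from the value of a single read. At that depth 3 reads were worth 0.0798 to 0.173 CPM. Doxorubicin replicates 2 and 3 and peroxide replicate 2 were the deepest, at 37.6, 35.3 and 32.4 M reads. Doxorubicin replicate 1 held 21.5 M, and no other library held more than 22.2 M. Libraries of a group correlated with r between 0.973 and 0.996 over genes, and 3 libraries stood apart from their groups on the second principal component, which held 23.7% of the variance. Peroxide replicate 2 scored 48.2 there against 16.8 and 14.2 for its partners, doxorubicin vehicle replicate 3 scored 37.8 against 6.67 and 5.21, and doxorubicin replicate 1 scored 0.0133 against -39.9 and -29.5. The peroxide vehicle libraries also spread there, at -33.6, -18.9 and -7.06 for replicates 1, 2 and 3. None of these was counted among the 3, so leaving out the 3 does not remove the spread on this component. All 10 fibroblast markers passed the filter on low values, and 8 of them rose after each treatment. After doxorubicin 1 fell and 1 did not pass the test, and after peroxide 2 did not pass. Of all genes tested 22.1% rose after doxorubicin and 27.3% after peroxide. The summed level of the fibroblast markers was 9762 to 14248 CPM with doxorubicin against 7606 to 8474 CPM in its vehicle, and 9711 to 11171 CPM with peroxide against 7038 to 8587 CPM. Of the markers of other cells, Epcam of epithelium reached at most 0.0935 CPM, Ptprc of leukocytes 0.0927 CPM, Cdh5 of endothelium 0.0466 CPM and Adipoq of adipocytes 4.05 CPM, and Kcnj8 of pericytes was at 0 in every library. Among 8 epithelial markers only the keratin Krt19 passed the filter, and the summed level of the 8 was 68.7 to 80.6 CPM with doxorubicin against 122 to 184 CPM in its vehicle, and 18.2 to 58.2 CPM with peroxide against 168 to 181 CPM. Of 6 adipocyte markers 3 passed, led by the lipase Lpl at 926 to 2384 CPM; the list summed to 1393 to 1482 CPM with doxorubicin against 2237 to 2441 CPM, and to 2091 to 2194 CPM with peroxide against 977 to 1174 CPM. Of 6 endothelial markers only Tek passed (at most 43.4 CPM), and the sums were 34.5 to 45.2 CPM against 12.5 to 16.4 CPM and 22.9 to 28.1 CPM against 5.67 to 9.54 CPM. Of 8 leukocyte markers 3 passed, with Lyz2 at most 15.8 CPM and Csf1r 14.1 CPM, and the sums were 27.4 to 32.8 CPM against 11.2 to 17.8 CPM and 23.2 to 26.4 CPM against 16.4 to 17.4 CPM. Of 6 pericyte and Schwann cell markers 2 passed, with S100b at most 43.0 CPM, and the sums were 28.3 to 35.6 CPM against 21.6 to 24.5 CPM and 37.9 to 44.8 CPM against 11.7 to 13.5 CPM. These markers moved with the treatments, and their part in the results was not tested.

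Both treatments were followed by lower expression of most of the replication machinery. Of the 45 replication genes that passed the filter of 1 CPM in 3 libraries, 36 fell and 2 rose after doxorubicin, and 42 fell and 1 rose after peroxide; 35 fell after both. Over all 13280 genes tested, 27.8% fell and 22.1% rose after doxorubicin, and 23.4% fell and 27.3% rose after peroxide; 13.5% fell after both. The median log2 fold change of the replication genes was -0.94 after doxorubicin, with -0.03 over all genes tested, and -1.29 after peroxide, with -0.01 over all genes. Fold changes are differences of mean log2(CPM + 1) between groups of 3, given with the standard error (SE), and a gene was called at an adjusted p below 0.05 in limma with Benjamini-Hochberg adjustment over all genes tested. In bulk RNA, fewer cells in S phase and less of these transcripts per cell cannot be told apart. Leaving out the 3 libraries that stood apart gave 38 falls and 4 rises after doxorubicin, and 43 falls and 1 rise after peroxide, where 28.7% and 26.2% of all genes tested in that fit fell and rose after doxorubicin and 25.8% and 28.5% after peroxide.

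Summed over the 46 genes, the deposited CPM of the 3 vehicle libraries of the doxorubicin experiment came to 3218, 3369 and 3114, and that of the doxorubicin libraries to 1846, 1822 and 1900.1. In the peroxide experiment the vehicle sums were 6219, 6050.1 and 5249.9, and the peroxide sums 2091, 2088 and 2113. In both experiments every treated library was below every vehicle library. By single genes, 37 of the 45 had every doxorubicin library below every vehicle library and 2 had every one above, where 33.6% and 26.1% of all genes tested did. For peroxide the counts were 43 below and 1 above, where 29.3% and 30.7% of all genes did.

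**Figure D1:**
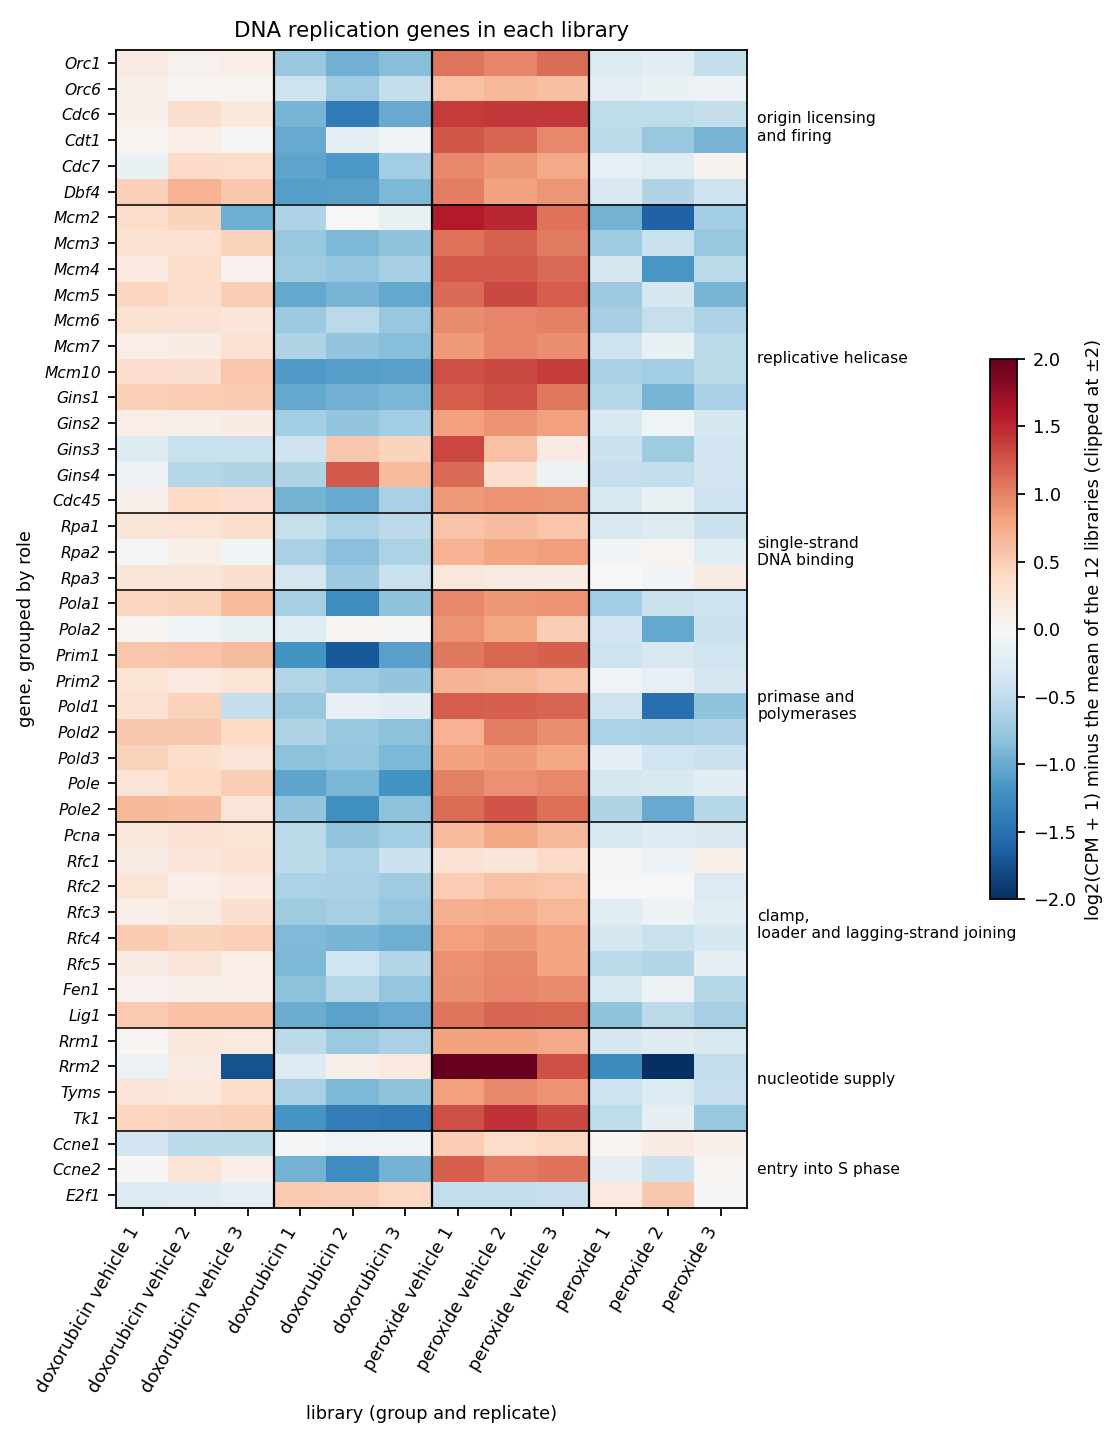
Log2(CPM + 1) of the 45 tested replication genes (rows, grouped by role) in the 12 libraries (columns), each relative to the mean of its gene over the 12 libraries. Day 6 vehicle libraries are the highest for nearly all genes, and E2f1 runs the opposite way; Rrm2, Mcm2 and Pold1 vary within groups, with low values in doxorubicin vehicle replicate 3 and peroxide replicate 2.

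Among the 6 genes of origin licensing and firing, 5 fell after doxorubicin (median log2 fold change -1.08) and 6 after peroxide (median -1.35). Cdc6 codes for the ATPase that loads the helicase with CDT1. It was at 26, 30.3 and 28 CPM in the vehicle and 12.2, 8.56 and 11.5 CPM after doxorubicin, and at 65.4, 66.2 and 65.7 CPM in the vehicle and 16.7, 16.7 and 17.1 CPM after peroxide. Neither pair of groups overlapped, and the fall was 1.32 log2 units (SE 0.11, adjusted p = 3.10e-06) after doxorubicin and 1.91 (SE 0.11, adjusted p = 1.81e-07) after peroxide. Dbf4, the activating subunit of the CDC7 kinase that fires origins, had the largest fall of this role after doxorubicin. Its level went from 15.8, 18.5 and 16.4 CPM to 4.61, 4.65 and 5.45 CPM, a log2 fold change of -1.60 (SE 0.11, adjusted p = 7.33e-07). With peroxide it went from 23.4, 19.96 and 21.1 CPM to 8.79, 6.95 and 8.08 CPM, a log2 fold change of -1.33 (SE 0.11, adjusted p = 2.87e-06). Its kinase partner Cdc7 changed by -1.17 and -0.97, both past the threshold.

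The origin recognition complex marks the sites where licensing starts. Orc1, its ATPase subunit, went from 14, 13.3 and 13.7 CPM to 6.97, 5.93 and 6.42 CPM (log2 fold change -0.98, SE 0.10, adjusted p = 1.10e-05) after doxorubicin and from 27.1, 25.4 and 28.1 CPM to 10.1, 10.5 and 8.64 CPM (log2 fold change -1.38, SE 0.10, adjusted p = 7.24e-07) after peroxide. Orc6, a small subunit of the complex, had the smallest fall of the role with peroxide. It went from 116, 122 and 117 CPM to 66.6, 69.6 and 70.5 CPM (log2 fold change -0.77, SE 0.08, adjusted p = 1.09e-05), and with doxorubicin from 82.9, 79.4 and 79.8 CPM to 57.6, 46.5 and 54.7 CPM (log2 fold change -0.61, SE 0.08, adjusted p = 7.59e-05). For both genes every treated library was below every vehicle library.

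Cdt1, the loading factor that is degraded in S phase, was the gene of this role that did not pass after doxorubicin. It was at 4.49, 4.88 and 4.21 CPM in the vehicle and 1.68, 3.67 and 4.08 CPM after doxorubicin, with no overlap but with doxorubicin replicate 1 well below its partners. The log2 fold change was -0.47 (SE 0.22, adjusted p = 0.0923). Peroxide libraries held 2.75, 2.16 and 1.82 CPM against 11.7, 11 and 9.42 CPM in their vehicle, a log2 fold change of -1.85 (SE 0.22, adjusted p = 3.14e-05). The 2 changes differed by 1.39 (SE 0.30, adjusted p = 0.00689).

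Of the 12 helicase genes, 9 fell after doxorubicin (median -0.95) and 11 after peroxide (median -1.65). Mcm3, a subunit of the MCM ring, was at 155, 156 and 174 CPM in the day 7 vehicle and 74.2, 67.1 and 72 CPM after doxorubicin. In the other experiment it was at 269, 285 and 259.9 CPM in the vehicle and 76.1, 92.2 and 74.1 CPM after peroxide. The treated libraries of both experiments lay between 67.1 and 92.2 CPM, clear of both vehicle groups, with log2 fold changes of -1.17 (SE 0.09, adjusted p = 1.24e-06) and -1.74 (SE 0.09, adjusted p = 6.30e-08). Mcm4, Mcm5, Mcm6 and Mcm7, which complete the ring with Mcm2, changed by -0.93, -1.42, -0.96 and -0.94 after doxorubicin, and by -1.88, -1.88, -1.55 and -1.28 after peroxide, all past the threshold. For Mcm7, 18.1% of its 50-base transcript windows also occur in another gene, so its counts are less certain. Mcm4 went from 129, 146 and 119.9 CPM to 68.8, 65.7 and 71.4 CPM (log2 fold change -0.93, SE 0.17, adjusted p = 0.000842) after doxorubicin and from 268, 267 and 249 CPM to 88.9, 49.8 and 77.7 CPM (log2 fold change -1.88, SE 0.17, adjusted p = 3.77e-06) after peroxide, where replicate 2 was the lowest. Mcm6 went from 30.1, 29.95 and 28.9 CPM to 14.2, 16.4 and 13.9 CPM (log2 fold change -0.96, SE 0.09, adjusted p = 4.48e-06) and from 47.5, 49 and 49.8 CPM to 15, 17.4 and 15.6 CPM (log2 fold change -1.55, SE 0.09, adjusted p = 1.09e-07). Neither gene had overlapping groups in either experiment.

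Mcm10, a factor that helps the loaded ring to open DNA, fell the most of this role after doxorubicin. Its level went from 26.9, 26.5 and 31.4 CPM to 9.08, 9.23 and 9.36 CPM (log2 fold change -1.51, SE 0.09, adjusted p = 1.29e-07). Under peroxide it went from 52.9, 54 and 56.4 CPM to 13, 12.5 and 14.2 CPM (log2 fold change -1.96, SE 0.09, adjusted p = 2.45e-08). Cdc45, which with GINS completes the active helicase, changed by -1.15 and -1.18. GINS is built from 4 subunits, and their genes did not move as 1. Gins1, with the second largest helicase fall after doxorubicin, went from 11.9, 12.2 and 12.4 CPM to 3.59, 3.75 and 3.94 CPM (log2 fold change -1.47, SE 0.11, adjusted p = 1.17e-06), and with peroxide from 20.4, 21.4 and 18.4 CPM to 5.23, 3.89 and 4.91 CPM (log2 fold change -1.90, SE 0.11, adjusted p = 1.62e-07). Gins2 went from 77, 75.6 and 77.8 CPM to 43.4, 40.3 and 43 CPM (log2 fold change -0.85, SE 0.08, adjusted p = 4.77e-06) and from 125, 132 and 125 CPM to 56.7, 66.6 and 55 CPM (log2 fold change -1.09, SE 0.08, adjusted p = 6.31e-07), although 67.3% of its exon bases are overlapped by another gene. The groups of both genes were clear of each other in each experiment.

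Gins3 and Gins4 code for the other subunits. Gins3 was at 3.31, 2.78 and 2.77 CPM in the day 7 vehicle and 2.84, 6.46 and 5.98 CPM after doxorubicin, where replicate 1 was low and the groups overlapped (log2 fold change 0.57, SE 0.30, adjusted p = 0.133). It was at 11.9, 6.72 and 4.74 CPM in the day 6 vehicle and 2.8, 2.13 and 2.94 CPM after peroxide (log2 fold change -1.20, SE 0.30, adjusted p = 0.0058). Gins4 was at 7.65, 5.33 and 5.23 CPM and, after doxorubicin, 5.22, 21 and 13.7 CPM, which overlapped (log2 fold change 0.85, SE 0.41, adjusted p = 0.105). In the peroxide experiment it was at 19.7, 10.9 and 7.74 CPM in the vehicle and 5.82, 5.68 and 6.26 CPM after treatment (log2 fold change -0.90, SE 0.41, adjusted p = 0.0887), with no overlap but short of the threshold. Without doxorubicin replicate 1 the doxorubicin changes became 0.87 for Gins3 and 1.36 for Gins4, and both passed. That fit set doxorubicin replicates 2 and 3, at 37.6 and 35.3 M reads, against vehicle libraries of 19.5 to 21.9 M. Whether depth played a part was not tested.

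Mcm2 was the ring subunit that did not pass after doxorubicin. It was at 81.9, 86.2 and 31.6 CPM in the vehicle and 40.6, 63.2 and 56.6 CPM after doxorubicin. The vehicle group held both the highest and the lowest of these 6 values, and the lowest was replicate 3, which stood apart. The log2 fold change was -0.21 (SE 0.36, adjusted p = 0.657), and with that library and peroxide replicate 2 left out it was -0.67 (adjusted p = 0.0154). With only that vehicle library left out, Mcm2 did not pass. Peroxide replicate 2 is not in this comparison and acts only through the shared estimate of spread. Leaving out the lowest vehicle library also made a larger fall certain. After peroxide Mcm2 went from 192, 181 and 136 CPM to 32.2, 19.9 and 38.9 CPM, the largest fall among the helicase genes (log2 fold change -2.48, SE 0.36, adjusted p = 0.000163).

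**Figure D2:**
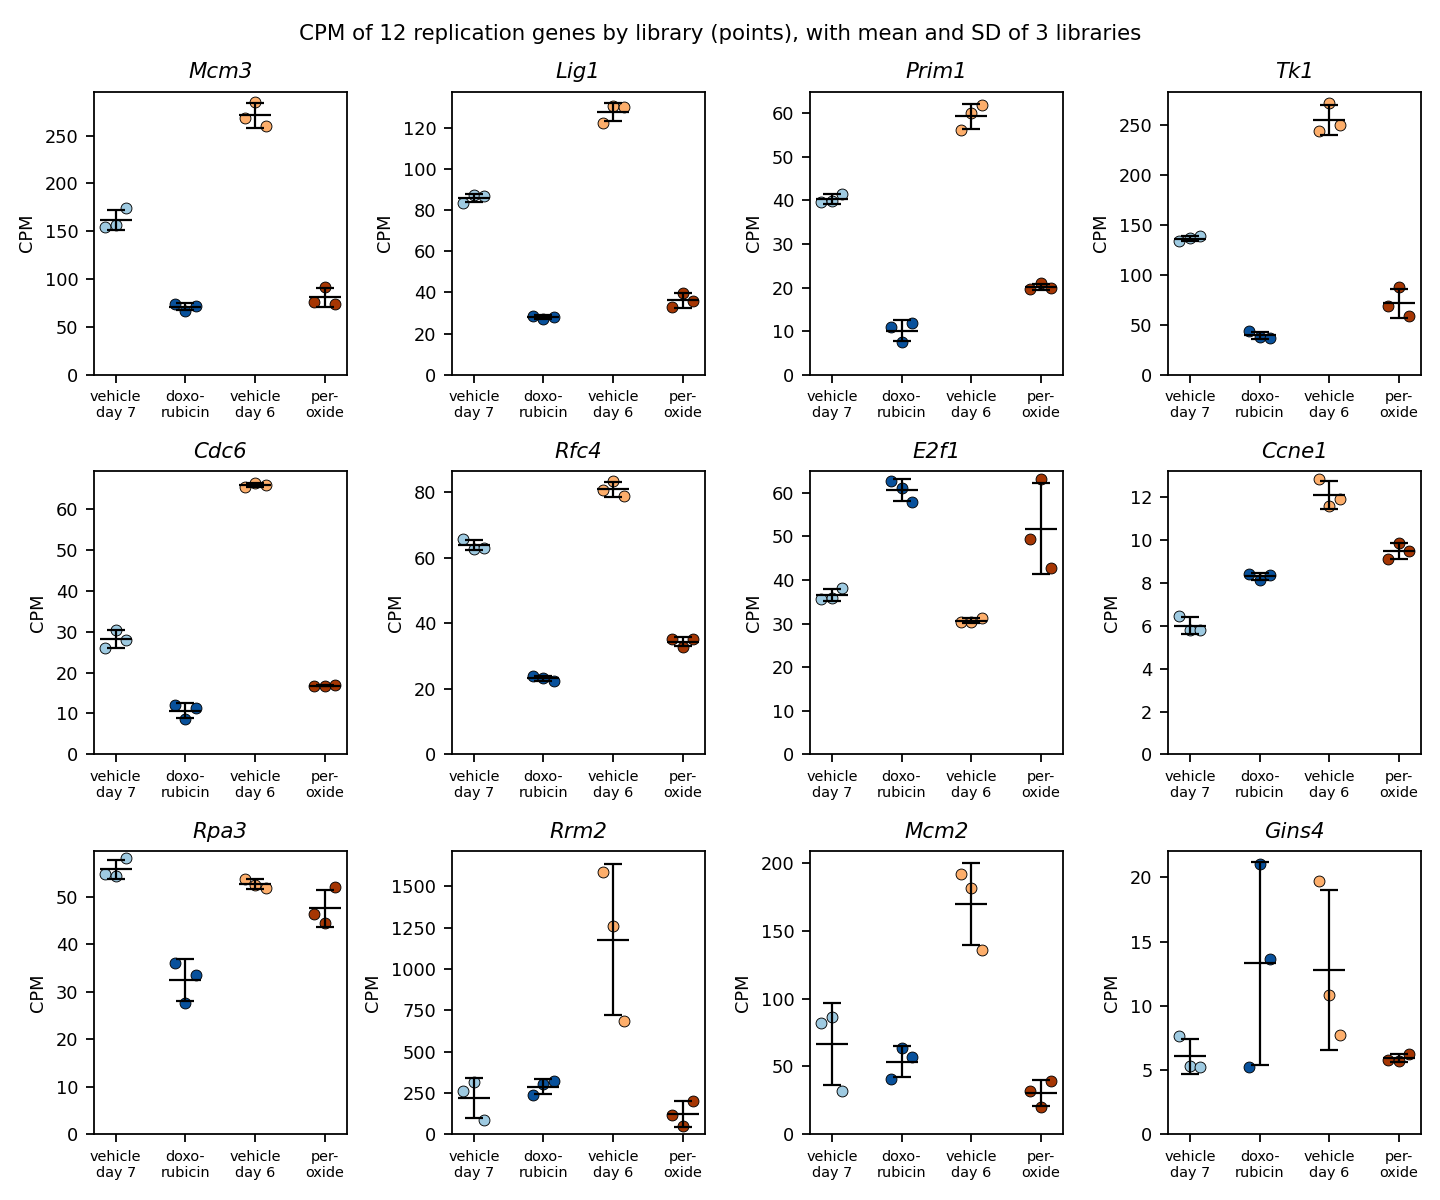
CPM (vertical axes, from 0) of 12 replication genes in the 4 groups (horizontal axes), with 1 point per library and the mean and SD of 3 libraries in black. Treated libraries lie below their vehicle for Mcm3, Lig1, Prim1, Tk1, Cdc6 and Rfc4 and above it for E2f1; Rrm2, Mcm2 and Gins4 spread widely within groups.

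Replication protein A, which coats single-stranded DNA, has 3 subunits, and all 3 genes fell after doxorubicin while 2 fell after peroxide. Rpa1, the large DNA-binding subunit, was at 305, 310.4 and 327 CPM in the day 7 vehicle and 186, 166 and 178 CPM after doxorubicin, and the groups did not overlap (log2 fold change -0.83, SE 0.07, adjusted p = 1.71e-06). With peroxide it went from 381, 393 and 379 CPM to 209, 215 and 191 CPM (log2 fold change -0.91, SE 0.07, adjusted p = 7.86e-07). Rpa2, the subunit phosphorylated under replication stress, went from 40.8, 44.8 and 39.5 CPM to 25.9, 22.7 and 26.3 CPM (log2 fold change -0.72, SE 0.09, adjusted p = 8.24e-05) after doxorubicin and from 67.5, 72 and 74.7 CPM to 39.6, 42.8 and 34.9 CPM (log2 fold change -0.86, SE 0.09, adjusted p = 1.99e-05) after peroxide. Neither of these genes had a treated library at the level of a vehicle library. Rpa3, the smallest subunit, was at 54.9, 54.5 and 58.1 CPM in the day 7 vehicle and 36.1, 27.6 and 33.6 CPM after doxorubicin, with no overlap (log2 fold change -0.77, SE 0.10, adjusted p = 6.62e-05). In the peroxide experiment it was at 53.8, 52.6 and 51.8 CPM in the vehicle and 46.4, 44.5 and 52 CPM after treatment, where the groups overlapped (log2 fold change -0.15, SE 0.10, adjusted p = 0.234). The Rpa3 changes differed by -0.63 (SE 0.14, adjusted p = 0.00709), with 9.48% of its transcript windows shared with another gene.

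Among the 9 genes of primase and the polymerases, 7 fell after doxorubicin (median -1.22) and 9 after peroxide (median -1.43). Prim1, the catalytic subunit of primase, which lays the RNA primers, had the largest fall of any replication gene after doxorubicin. It was at 39.5, 39.9 and 41.5 CPM in the vehicle and 11, 7.47 and 11.9 CPM after doxorubicin (log2 fold change -1.92, SE 0.13, adjusted p = 5.70e-07). After peroxide it went from 56.2, 59.98 and 61.8 CPM to 19.6, 20.9 and 19.8 CPM (log2 fold change -1.51, SE 0.13, adjusted p = 3.36e-06), and neither pair of groups overlapped. Prim2, the regulatory primase subunit, had the smallest fall of this role with peroxide. It went from 56.1, 55 and 52.1 CPM to 33, 30.9 and 27.2 CPM (log2 fold change -0.83, SE 0.09, adjusted p = 1.36e-05), and with doxorubicin from 41.9, 39.6 and 41.8 CPM to 22.6, 20.6 and 19.6 CPM (log2 fold change -0.94, SE 0.09, adjusted p = 5.37e-06). Pola1 changed by -1.41 and -1.43 and Pole, the leading-strand polymerase epsilon, by -1.44 and -1.25. Pole2, the second subunit of polymerase epsilon, went from 20.1, 19.5 and 14.9 CPM to 6.74, 4.68 and 6.52 CPM (log2 fold change -1.46, SE 0.16, adjusted p = 2.66e-05) after doxorubicin and from 27.9, 31 and 27.7 CPM to 7.82, 5.64 and 7.96 CPM (log2 fold change -1.89, SE 0.16, adjusted p = 3.18e-06) after peroxide, with no overlap; 8.5% of its exon bases are overlapped by another gene. Pold2 and Pold3, accessory subunits of polymerase delta, changed by -1.22 and -1.19 after doxorubicin and by -1.52 and -1.14 after peroxide. All of these passed in both comparisons.

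The exceptions after doxorubicin were Pola2 and Pold1. Pola2, the second subunit of polymerase alpha, was at 23.1, 20.8 and 20.1 CPM in the vehicle and 18.7, 23.1 and 22.5 CPM after doxorubicin, and the ranges overlapped (log2 fold change 0.00, SE 0.17, adjusted p = 0.991). With peroxide it went from 42.3, 38.6 and 31.8 CPM to 16.9, 10.5 and 16.3 CPM (log2 fold change -1.33, SE 0.17, adjusted p = 6.51e-05). Pold1, the catalytic subunit of polymerase delta, was at 19.8, 22.3 and 11.1 CPM in the day 7 vehicle and 8.99, 14.1 and 13.6 CPM after doxorubicin, again with a low vehicle replicate 3. Its log2 fold change was -0.47 (SE 0.29, adjusted p = 0.197), and with doxorubicin vehicle replicate 3 and peroxide replicate 2 left out it was -0.76 (adjusted p = 0.00598). Here too, leaving out the lowest vehicle library made a larger fall certain. Peroxide took Pold1 from 38.3, 37.4 and 36.8 CPM to 11.6, 4.94 and 8.65 CPM, the largest fall of this role (log2 fold change -2.10, SE 0.29, adjusted p = 0.000121).

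All 8 genes of the clamp, its loader and strand joining fell after both treatments, with medians of -0.90 and -1.09. Lig1, the ligase that seals Okazaki fragments, was at 83.6, 87.3 and 86.9 CPM in the day 7 vehicle and 28.7, 26.9 and 28.1 CPM after doxorubicin (log2 fold change -1.59, SE 0.08, adjusted p = 3.28e-08). In the peroxide experiment it was at 122, 131 and 130.0 CPM in the vehicle and 32.8, 39.9 and 36 CPM after treatment (log2 fold change -1.79, SE 0.08, adjusted p = 1.75e-08). Its groups did not overlap in either experiment. Pcna, the sliding clamp, changed by -0.93 (SE 0.07) and -0.98 (SE 0.07); 19.1% of its windows also occur in another gene. Fen1, the nuclease that trims Okazaki fragments, went from 64.4, 65.3 and 66.3 CPM to 33.8, 40.5 and 35.2 CPM (log2 fold change -0.83, SE 0.11, adjusted p = 7.78e-05) after doxorubicin and from 117, 120.4 and 117 CPM to 48.2, 56 and 40.4 CPM (log2 fold change -1.29, SE 0.11, adjusted p = 2.23e-06) after peroxide. However, 84.2% of its exon bases are overlapped by genes on the opposite strand, and whether the counting used strand is not given in the sources used here.

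Replication factor C opens the clamp and loads it onto DNA. Rfc4 went from 65.7, 62.8 and 63.1 CPM to 24, 23.2 and 22.4 CPM after doxorubicin (log2 fold change -1.42, SE 0.06, adjusted p = 1.85e-08) and changed by -1.21 after peroxide. Rfc5, second to Lig1 in this role with peroxide, went from 16.7, 17.4 and 15.3 CPM to 5.47, 5.32 and 7.27 CPM (log2 fold change -1.32, SE 0.15, adjusted p = 1.99e-05), and with doxorubicin from 9.47, 10.1 and 9.38 CPM to 4.06, 6.18 and 5.31 CPM (log2 fold change -0.80, SE 0.15, adjusted p = 0.000892). Rfc2 and Rfc3 changed by -0.86 and -0.93 after doxorubicin and by -0.64 and -0.90 after peroxide. Rfc1, the large subunit, fell the least of this role under both treatments. It was at 115, 123 and 128 CPM in the day 7 vehicle and 71.4, 66.5 and 76.1 CPM after doxorubicin (log2 fold change -0.77, SE 0.08, adjusted p = 1.57e-05). Under peroxide it went from 126, 122 and 135 CPM to 102, 95.3 and 111 CPM (log2 fold change -0.31, SE 0.08, adjusted p = 0.00703), and this call was lost with upper-quartile scaling (adjusted p = 0.050).

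Of the 4 nucleotide supply genes, 3 fell after doxorubicin and 4 after peroxide. Tk1, the thymidine kinase of cycling cells, was at 134, 137 and 138 CPM in the day 7 vehicle and 43.3, 37.6 and 37.2 CPM after doxorubicin (log2 fold change -1.77, SE 0.12, adjusted p = 5.46e-07). In the peroxide experiment it went from 244, 271 and 249 CPM to 69.2, 87.3 and 58.5 CPM (log2 fold change -1.83, SE 0.12, adjusted p = 4.16e-07), and no treated library reached a vehicle library. Tyms, which makes thymidylate, went from 101, 99.1 and 108 CPM to 53.9, 44.8 and 47.9 CPM (log2 fold change -1.06, SE 0.08, adjusted p = 1.52e-06) after doxorubicin and from 150.0, 166 and 159 CPM to 63.2, 69.7 and 61.2 CPM (log2 fold change -1.28, SE 0.08, adjusted p = 3.54e-07) after peroxide. Rrm1, the large subunit of ribonucleotide reductase, went from 326, 364 and 360.3 CPM to 218, 187 and 199.9 CPM (log2 fold change -0.79, SE 0.07, adjusted p = 3.39e-06) and from 550.5, 552 and 536 CPM to 250.3, 264 and 255 CPM (log2 fold change -1.09, SE 0.07, adjusted p = 2.83e-07), the smallest fall of this role with peroxide. The groups of both genes did not overlap.

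Rrm2 codes for the small subunit of ribonucleotide reductase, the one whose level follows the cell cycle, and it had the widest spread between libraries of a group of all 45 genes. In the day 7 vehicle it was at 261, 318 and 83.8 CPM and after doxorubicin at 236, 302 and 324 CPM, and the groups overlapped (log2 fold change 0.57, SE 0.56, adjusted p = 0.415). In the day 6 vehicle it was at 1586, 1257 and 684 CPM and after peroxide at 118, 48.4 and 201 CPM, with every peroxide library below every vehicle library (log2 fold change -3.39, SE 0.56, adjusted p = 0.000415). This was the largest fall of any replication gene in either experiment. With doxorubicin vehicle replicate 3 and peroxide replicate 2 left out, the changes were -0.02 after doxorubicin and -2.84 after peroxide.

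Entry into S phase is governed by cyclin E and the E2F activators, and here the members went different ways. E2f1, a transcription factor that drives S-phase genes, rose after both treatments. It was at 35.7, 36 and 38.1 CPM in the day 7 vehicle and 62.8, 61.2 and 57.8 CPM after doxorubicin (log2 fold change 0.71, SE 0.12, adjusted p = 0.000413). It was at 30.4, 30.4 and 31.3 CPM in the day 6 vehicle and 49.4, 63.2 and 42.7 CPM after peroxide (log2 fold change 0.72, SE 0.12, adjusted p = 0.000364), and in both experiments every treated library was above every vehicle library. E2f2, another activator, did not pass the filter. Its levels were 0.395, 0.729 and 0.718 CPM in the day 7 vehicle, 0.186, 0.0798 and 0.624 CPM after doxorubicin, 1.19, 0.953 and 1.5 CPM in the day 6 vehicle and 0.135, 0.587 and 0.187 CPM after peroxide. Of the 12 libraries 2 reached 1 CPM; all peroxide libraries were below their vehicle, and the doxorubicin groups overlapped.

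Ccne1 and Ccne2 code for the 2 forms of cyclin E. Ccne2 went from 42.4, 50.9 and 44.8 CPM to 21.4, 17.1 and 21.3 CPM after doxorubicin (log2 fold change -1.17, SE 0.13, adjusted p = 2.10e-05) and, with peroxide, from 97, 87.7 and 90.05 CPM to 36.6, 30.9 and 43.3 CPM (log2 fold change -1.30, SE 0.13, adjusted p = 8.76e-06). Ccne1 was at 6.46, 5.79 and 5.8 CPM in the day 7 vehicle and 8.43, 8.14 and 8.39 CPM after doxorubicin, where all treated libraries were higher (log2 fold change 0.41, SE 0.09, adjusted p = 0.00293). In the day 6 vehicle it was at 12.8, 11.6 and 11.9 CPM and after peroxide at 9.11, 9.85 and 9.49 CPM, where all treated libraries were lower (log2 fold change -0.32, SE 0.09, adjusted p = 0.0113). Both Ccne1 calls were lost with upper-quartile scaling, at 0.31 (adjusted p = 0.0516) and -0.31 (adjusted p = 0.0567), with the signs kept.

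The test of the difference between the 2 treatment effects asks whether a gene moved by different amounts against its own vehicle. It called 18 of the 45 replication genes, where 33.6% of all genes tested were called: 16 were higher, which here mostly means a weaker fall after doxorubicin than after peroxide, and 2, Rpa3 and Rfc1, were lower. Over all genes tested 13.5% were higher and 20.1% lower, so the higher calls made up 40.3% of all calls; with median-of-ratios scaling they made up 52.0%. The median difference of the replication genes was 0.24, with -0.07 over all genes. Helicase genes gave 7 of the 16, licensing genes 3, the polymerases 2, nucleotide supply 2, strand joining 1 and cyclin E 1. The largest differences were those of Rrm2 (3.96, SE 0.79, adjusted p = 0.00426), Mcm2 (2.28, SE 0.51, adjusted p = 0.00739), Gins3 (1.77, SE 0.42, adjusted p = 0.00984), Gins4 (1.75, SE 0.58, adjusted p = 0.0389) and Pold1 (1.63, SE 0.41, adjusted p = 0.0133). These 5 were also the genes with a pooled SD above 0.3 log2 units between libraries of a group, where the median SD was 0.117 for the replication genes and 0.168 for all genes tested. In every group, all 5 were lowest in the library with the highest score on the second principal component. Scores there were 0.0133 or lower in doxorubicin and peroxide vehicle libraries, and 5.21 or higher in doxorubicin vehicle and peroxide libraries. The spread on this component thus runs the same way as the difference, and its part in these values was not tested.

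Other genes differed too. Pola2 differed by 1.33 (SE 0.24, adjusted p = 0.00259), Ccne1 by 0.73 (SE 0.13, adjusted p = 0.00206), Mcm6 by 0.59 (SE 0.12, adjusted p = 0.00486), Mcm3 by 0.57 (SE 0.13, adjusted p = 0.00727) and Rfc1 by -0.45 (SE 0.11, adjusted p = 0.0129). For Mcm3 and Mcm6 the call was lost with upper-quartile scaling, at 0.44 and 0.47. The calls of Orc1, Rrm1, Fen1 and Gins4 were lost in 17, 14, 14 and 13 of 25 alternatives, with adjusted p of up to 0.30, 0.506, 0.213 and 0.0943. Cdc6 lost its call with upper-quartile scaling, with the replicate block and at a threshold of 0.01 (adjusted p of up to 0.111), and Mcm10 with upper-quartile scaling and at 0.01 (up to 0.171). At the other end, Pola1 differed by 0.01 (SE 0.20), E2f1 by -0.01 (SE 0.16), Cdc45 by 0.03 (SE 0.16) and Pcna by 0.05 (SE 0.10), and none of these passed. Leaving out peroxide replicate 2 and doxorubicin vehicle replicate 3 took Rrm2 to 2.83, Mcm2 to 1.55 and Pold1 to 1.04, all still past the threshold, and Gins4 to 1.65, which did not pass (adjusted p = 0.0943). The treatments also differed in agent, exposures and day of lysis, and these cannot be told apart.

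**Figure D3:**
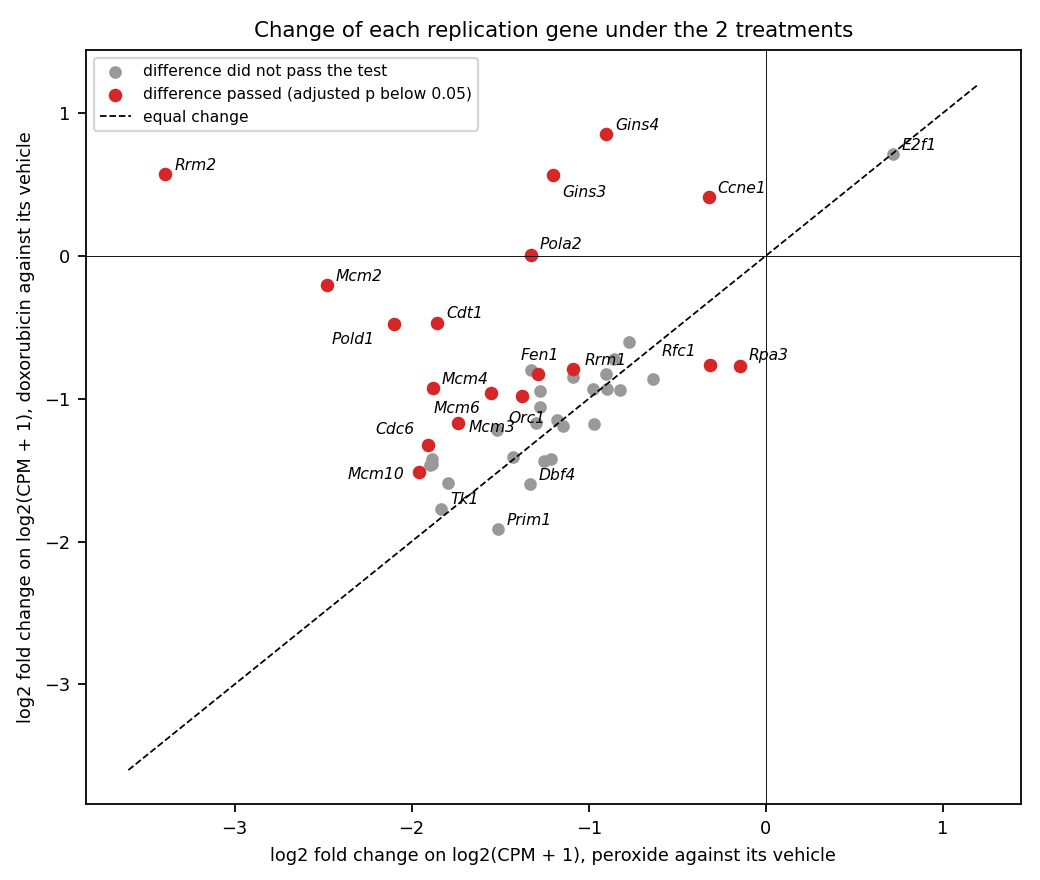
Log2 fold change on log2(CPM + 1) after peroxide (horizontal) and after doxorubicin (vertical), each against its own vehicle, for the 45 tested replication genes; red points passed the test of the difference. Most genes lie below 0 on both axes, Rpa3 and Rfc1 lie right of the line of equal change, and Rrm2 lies farthest from it at -3.39 and 0.57.

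The 2 vehicle groups differed in most of these genes. Of the 45 replication genes 39 were lower in the day 7 vehicle than in the day 6 vehicle and 0 were higher in limma, where 12.9% and 15.1% of all genes tested were; at an unadjusted p below 0.05, 41 were lower and 0 higher, where 19.1% and 21.0% of all genes tested were. The median log2 difference was -0.68, with -0.02 over all genes. Cdc6 was at 26, 30.3 and 28 CPM in the day 7 vehicle and 65.4, 66.2 and 65.7 CPM in the day 6 vehicle (-1.20, SE 0.11, adjusted p = 3.21e-05), and Mcm10 and Ccne1 differed by -0.92 and -0.90. Orc1, Gins2, Rrm1, Mcm3, Mcm6, Rpa2 and Fen1 differed by -0.92, -0.72, -0.64, -0.74, -0.70, -0.76 and -0.84, all past the threshold. Rrm2 had the largest value of all, -2.53 (SE 0.56, adjusted p = 0.00642). Those that did not pass were Dbf4, Gins4, Rpa3, Pola1, Rfc1 and E2f1, with values from -0.89 to 0.25. Every day 7 vehicle library was below every day 6 vehicle library for 42 of the 45 genes and above for 2, where 26.3% and 25.9% of all genes tested were. Day of lysis, the experiment and the number of splits cannot be told apart here. Of the 16 genes with a higher difference between the treatment effects, 15 were lower in the day 7 vehicle; both comparisons use the same vehicle libraries.

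Set side by side without their vehicles, the doxorubicin libraries held less replication transcript than the peroxide libraries for most genes, a comparison added after seeing the data that mixes agent and day. Of the 45 genes 27 were lower with doxorubicin and 1, Pola2, was higher (0.55, SE 0.17, adjusted p = 0.0345). Over all genes tested 18.0% were lower and 9.50% higher, the higher calls making up 34.6% of all calls and 51.9% with median-of-ratios scaling. The median log2 difference was -0.38, with -0.07 over all genes. Prim1 (-0.95), Cdc7 (-0.86), Ccne2 (-0.85), Tk1 (-0.83) and Pole (-0.77) had the 5 largest values among the genes called lower. Rrm2 had the largest value of all, 1.43 (SE 0.56, adjusted p = 0.0759), which did not pass although every doxorubicin library was above every peroxide library; Mcm2 (0.83, adjusted p = 0.104) was the same in this. Mcm3 (-0.18, adjusted p = 0.154), Mcm4 (-0.03, adjusted p = 0.901) and Mcm6 (-0.10, adjusted p = 0.37) did not pass. Of the 16 genes called higher in the test of the difference, 10 had treated levels that did not differ past the threshold. Without the 3 libraries that stood apart, 29 genes were lower and 8 higher, where 21.6% and 17.1% of all genes tested in that fit were. Relative to the day 6 vehicle, the median replication gene stood at -0.68 in the day 7 vehicle, -1.29 after peroxide and -1.66 after doxorubicin.

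**Figure D4:**
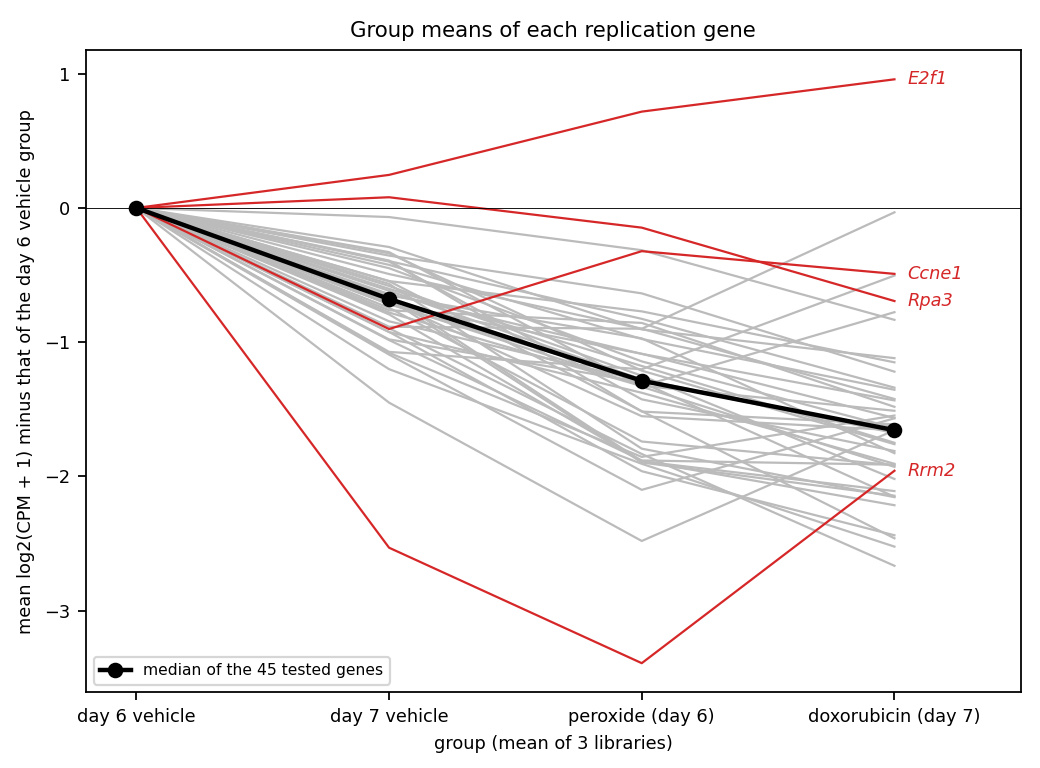
Mean log2(CPM + 1) of each tested replication gene in the 4 groups (3 libraries each), relative to its mean in the day 6 vehicle (vertical axis); a line joins the values of 1 gene and implies no order of the groups, and the black line is the median of the 45 genes. The median is -0.68, -1.29 and -1.66 in the day 7 vehicle, peroxide and doxorubicin groups, and E2f1 lies above 0 in all 3.

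Levels can be compared between genes per kilobase (kb) of exon, merged over the protein-coding transcripts of a gene and given as the mean ± SD of 3 libraries. With the exons of all annotated transcripts the lengths change by unequal amounts. For Rpa3 the length is then 1136 rather than 670 bases, for Pcna 2400 rather than 1518, and for Rrm1 11012 rather than 3997. The order of genes below can therefore depend on this choice. In the day 6 vehicle, Rrm2 was the highest at 536 ± 208 CPM per kb, followed by Tk1 at 177 ± 10.2, Rrm1 at 137 ± 2.19 and Pcna at 136 ± 7.41 CPM per kb. Rrm2 varied most between libraries, and even so its mean led by more than 1 SD. In the day 7 vehicle Pcna at 101 ± 1.99, Rrm2 at 101 ± 55.6 and Tk1 at 94.6 ± 1.71 CPM per kb did not differ beyond the spread of Rrm2. After doxorubicin the order was Rrm2 at 131 ± 21, Pcna at 53 ± 5.15, Rrm1 at 50.5 ± 3.9 and Rpa3 at 48.4 ± 6.56 CPM per kb, and the last 3 lay within about 1 SD of each other. After peroxide the highest was Rpa3 at 71.1 ± 5.82, then Pcna at 68.9 ± 1.14, Rrm1 at 64.2 ± 1.77 and Rrm2 at 55.8 ± 34.8 CPM per kb. These 4 did not differ beyond the spread of Rrm2 either, and Tk1 had dropped to 49.8 ± 10.1 CPM per kb.

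Among the replication genes with a promoter window, those with the E2F consensus and those without it had overlapping changes. After doxorubicin the 14 tested genes with it had a median of -1.08 (from -1.59 to 0.57) and the 23 without it a median of -0.83 (from -1.92 to 0.71). After peroxide the medians were -1.65 (from -2.10 to -0.90) and -1.21 (from -3.39 to 0.72). These are descriptions of the 2 sets, and the difference was not tested.

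Of 65 other genes of the pathway, 39 fell and 2 rose after doxorubicin and 48 fell and 3 rose after peroxide, with medians of -0.53 and -0.89. For comparison, 27.8% of all genes tested fell and 22.1% rose after doxorubicin, and 23.4% fell and 27.3% rose after peroxide. Other origin and firing factors gave 14 falls of 17 after doxorubicin and 15 of 17 after peroxide, other fork factors 8 and 12 of 17, and chromatin assembly at the fork 6 and 9 of 9. Other nucleotide supply genes gave 6 and 7 falls of 10, and the other E2F and pocket protein genes 5 and 5 of 12. Ccna2, the cyclin of S and G2 phase, had the largest fall after doxorubicin (-1.90, SE 0.09, adjusted p = 2.52e-08), ahead of the histone chaperone Asf1b (-1.63) and the repressor E2f8 (-1.63). After peroxide the largest falls were those of Fbxo5, an inhibitor of the anaphase-promoting complex (-2.62, SE 0.37, adjusted p = 0.000137), Uhrf1, which recruits the maintenance methyltransferase (-2.22), and Chaf1b of chromatin assembly factor 1 (-2.12). Ccna2 changed by -1.62 after peroxide, and Gmnn, the inhibitor of CDT1, by -1.54 and -1.53.

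The few that rose were of other kinds. After doxorubicin these were Samhd1, which degrades nucleotides (0.78, SE 0.08, adjusted p = 8.57e-06), and the repressor E2f6 (0.71, SE 0.11, adjusted p = 0.000409). After peroxide they were Rb1, the retinoblastoma protein (0.85, SE 0.18, adjusted p = 0.00192), its relative Rbl2 (0.73, SE 0.10, adjusted p = 0.000112), and the mitochondrial thymidine kinase Tk2 (0.69, SE 0.21, adjusted p = 0.0193). Rb1 had a value of 0.33 after doxorubicin, which did not pass. Rrm2b, the p53-induced alternative to Rrm2, had values of -0.17 (SE 0.13, adjusted p = 0.291) and 0.15 (SE 0.13, adjusted p = 0.349).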

How the data were processed

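Total RNA from 12 libraries of mouse mammary fibroblasts was sequenced, and the deposited table holds CPM, made by the authors as counts per 1e+06 reads. Per the submitters' processing notes, bcl2fastq, DRAGEN and the mm10 build were used; the counter, the annotation and whether it used strand were not given in the sources used here. Of 55774 lines, 287 repeated an identifier with identical values and were dropped, leaving 55487 genes, of which 55227 (99.5%) were found in GENCODE M21. Steps of 0.01 reads fitted nearly all values, and of values up to 20 reads 74.7% to 79.9% were whole within 0.001 per library, so whole reads could not be recovered and no count model was run.

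Values were taken as log2(CPM + 1) for the 13280 genes that reached 1 CPM in 3 or more libraries. limma 3.58.1 (R 4.3.3) was fitted with a mean-variance trend to 4 group means over all 12 libraries, with 8 residual degrees of freedom, two-sided tests, Benjamini-Hochberg adjustment over all genes tested and a threshold of 0.05. The fit was tested on simulated data with known changes and noise drawn independently for each gene and library. Such data hold no deviations that genes of a library share, so the error rate in these libraries was not tested. Groups come from the sample titles. Full values are given, in each role and for each treatment, for the 2 genes with the largest change and the 1 with the smallest, and for genes that rose or passed in the difference or vehicle comparison (at most 10 each, by adjusted p); other genes are given by values or counts. Names outside this rule were chosen after their values were seen. The 46 genes, the 65 other pathway genes in 5 lists and the 44 markers in 6 lists were chosen with earlier results of these data known. The comparison of the treated groups and the GC correction were added after seeing the data. Alternatives were other pseudocounts, filters, scalings, weights, thresholds, a replicate block and leaving out libraries. Gene copies were sought as shared 50-base windows of transcripts. Promoter stretches are from RefSeq.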

Additional observations from a re-analysis of the deposited data

Results flagged for a closer look

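The test of the difference between the 2 treatment effects (log2 change after doxorubicin minus log2 change after peroxide, each against its own vehicle, limma with an adjusted p below 0.05 over all genes tested) picked out 18 of the 45 replication genes for a closer look. Of all genes tested 33.6% were called, 13.5% as higher and 20.1% as lower, so the total is near that share. Among the licensing genes these were Orc1 at 0.40, Cdc6 at 0.58 and Cdt1 at 1.39. Among the helicase genes they were Mcm2 at 2.28, Mcm3 at 0.57, Mcm4 at 0.95, Mcm6 at 0.59, Mcm10 at 0.45, Gins3 at 1.77 and Gins4 at 1.75. Polymerase subunits gave Pola2 at 1.33 and Pold1 at 1.63, and ribonucleotide reductase gave Rrm1 at 0.29 and Rrm2 at 3.96. Fen1 stood at 0.46 and Ccne1 at 0.73. Rpa3 at -0.63 and Rfc1 at -0.45 were the genes whose change was lower after doxorubicin. Orc1, Rrm1 and Fen1 were near the threshold, with adjusted p of 0.0487, 0.0380 and 0.0374, and their calls were lost in 17, 14 and 14 of 25 alternatives; that of Gins4 was lost in 13, and that of Cdc6 in 3. Groups of 3 libraries are too small for a test of single outlying libraries.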

How the results depend on the processing

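Over 25 or 26 alternatives per comparison, 339 of 382 summary values (counts of replication genes called, and medians) kept within their limits and 43 moved; no median changed sign. The limit of a count was a set ratio to its main value. The counts of 36 and 42 falls and of 39 genes lower between vehicles, of 45 tested, could not exceed it upward. Part of this stability was therefore fixed in advance. Leaving out 1 library at a time gave 36 to 37 falls and 2 to 4 rises after doxorubicin (median -0.996 to -0.91), 42 to 43 falls and always 1 rise after peroxide (median -1.31 to -1.25), 2 to 3 lower and 12 to 19 higher differences (median 0.21 to 0.29), 36 to 41 lower and 0 to 1 higher between vehicles (median -0.70 to -0.65), and 24 to 28 lower and 0 to 4 higher between treated groups (median -0.45 to -0.34). Medians after doxorubicin were -0.89 with median-of-ratios scaling, -1.05 with upper-quartile scaling, -0.99 without the 3 libraries that stood apart and -0.86 with a transcript GC correction. After peroxide they were -1.25 without those 3 or without peroxide replicate 2 and doxorubicin vehicle replicate 3, and -1.33 with the GC correction. The median difference was 0.31 with median-of-ratios scaling or array weights, 0.11 with upper-quartile scaling and 0.30 with the GC correction. Vehicle medians were -0.71 and -0.64 with pseudocounts of 0.1 and 2 and -0.62 with upper-quartile scaling. Medians between treated groups were -0.31, -0.44 and -0.32 with median-of-ratios scaling, upper-quartile scaling and the GC correction. Rises after doxorubicin numbered 1 with upper-quartile scaling and 4 with array weights or without those 3 libraries. Higher differences numbered 9 with upper-quartile scaling and 8 at a threshold of 0.01, and lower ones 4 with array weights and 1 at 0.01. Array weights gave 1 higher gene between vehicles. Higher genes between treated groups numbered 0 with no filter, with the replicate block or at 0.01, 7 with array weights and 8 without those 3 libraries. In that last fit 17.1% of all genes tested were higher, against 9.5% in the main fit. For most other fits the share over all genes is not given here. A shift in these counts may therefore hold for all genes tested. The E2F count moved from 15 to 8 of 38 genes in the window before the start, where 3.93% of the genes of the expression test held the consensus. The causes were not tested. Upper-quartile scaling moved the median of all genes from -0.03 to -0.13 after doxorubicin and from -0.07 to -0.18 in the difference.

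Replicate numbers were not used as pairs in the main fit. Deviations of same-numbered libraries from their group means correlated at -0.311, 0.194 and -0.277 in the doxorubicin experiment and 0.143, 0.0304 and -0.237 in the peroxide experiment, and not every library correlated best with its own number. Deviations from a group mean cancel out within the group, so these correlations depend on each other. They cannot decide whether the samples were paired. With the replicate block 36 genes fell and 2 rose after doxorubicin, 42 fell and 1 rose after peroxide, 2 were lower and 11 higher in the difference, and 39 were lower and 0 higher between vehicles. The shares over all genes in that fit are not given here. E2f2 was below the filter on low values, and no count test was run, since whole reads were not recovered.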
